A study of Oryza sativa Indica Group with 11 samples.

Results

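The genes described here encode the calcium sensors of rice and the protein kinases that act with or beside them. They are the calcineurin B-like proteins (CBL) with their partner kinases (CIPK), the calcium-dependent protein kinases (CPK), the calmodulins (CAM) and calmodulin-like proteins (CML), the SnRK2 kinases that rice nomenclature calls SAPK, and the MAP kinases (MPK) with their upstream kinases (MKK). A gene was a member if its symbol or a synonym carried one of these family names followed by a number and if the array held a probe set assigned to that gene alone. Where a gene had several such probe sets, the one with the highest mean over all arrays was used. By this rule 103 genes were members, of 17905 genes with a probe set of their own. They comprised 31 CIPK and CBL genes, 26 CML and CAM genes, 20 CPK genes, 16 MPK and MKK genes and 10 SAPK genes. A further 16 genes of these names had no probe set of their own here and were not analysed.

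Transcript levels came from the crown and growing point, where the shoot meristem lies, with the tissue of several plants pooled in a sample and each RNA sample hybridised to its own Affymetrix array. The 11 arrays covered FL478 control plants (n = 3), FL478 salt-stressed plants (n = 3), IR29 control plants (n = 2) and IR29 salt-stressed plants (n = 3). IR29 is a salt-sensitive indica rice, and FL478 tolerates salt and was bred as an inbred line from IR29 crossed with the landrace Pokkali, so both lines share IR29 segments. The labels used here name neither a salt dose nor a treatment time nor a plant age, and they describe arrays within a group as biological replicates.

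Salt raises the free calcium of plant cells, and these proteins read that signal. A CBL protein binds calcium and recruits a CIPK kinase to a membrane. CBL4 with CIPK24 forms the SOS module, which activates the sodium/proton exchanger SOS1, and CIPK23 activates the potassium channel AKT1. A CPK carries the calcium sensor and the kinase in a single protein, whereas calmodulins and CML proteins have no kinase domain and act by binding targets. The SAPK kinases do not bind calcium: osmotic stress and abscisic acid activate them, and they phosphorylate bZIP factors such as TRAB1 and BZIP23. MAP kinases relay stress signals through phosphorylation cascades. All of these proteins are switched by calcium binding or phosphorylation, which an array of transcript levels does not record.

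Levels are given as log2 of the quantile-normalized intensity plus 16, and differences on the same scale, with the standard error of the limma fit after the ± sign. A difference of 1 is a 2-fold change. Of the 103 members, 15 were dim, with a mean intensity under 64, where the pseudocount compresses changes and small signals are uncertain: CBL5, CIPK5, CIPK20, CIPK30, CML3, CML5, CML24, CML28, CML31, CML32, CPK2, CPK6, CPK21, CPK22 and CPK29. The other 88 members were not dim. For 12 members the probe set used has a suffix that Affymetrix gives where probes can match more than 1 transcript, among them CPK12, SAPK9, CML4, CML13 and CIPK2. CIPK32 and CML3 overlap in the RefSeq assembly, and the neighbouring pairs CIPK30 with CIPK12, CML9 with CAM2, and CIPK29 with CIPK2 do not.

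As deposited, every array had the same trimmed mean of 500.1 (2% cut at each end), and the array medians ran from 48.3 to 73.2. All 5 shoot meristem markers measured (the KNOX genes OSH1, OSH3, OSH6, OSH43 and OSH71) had mean intensities of at least 143.9, above the dim limit, in this tissue. Across arrays the summed intensity of 3 xylem markers, the secondary-wall cellulose synthases CESA4, CESA7 and CESA9, was 3466 to 3989 in FL478 control plants and 4343 to 6333 in FL478 salt-stressed plants. In IR29 the same sum was 3419 to 3879 in control plants and 6006 to 8872 under salt, so in both lines every salt array lay above every control array. For 3 root markers (SCR1, SHR1 and WOX5) the sum ran from 932 to 1026 against 760 to 861 under salt in FL478, and from 855 to 994 against 645 to 772 in IR29. The log2 differences of the 3 genes ran from -0.34 to -0.23 in FL478. In IR29 SHR1, the brightest of them, was at -0.51 ± 0.15, but SCR1 was at -0.03 ± 0.27 and WOX5 at 0.09 ± 0.43. The 17 markers of dividing cells summed to 45490 to 52284 in control and 39551 to 45979 in salt-stressed FL478 plants, and to 44731 to 54109 against 34994 to 43885 in IR29. The 5 leaf markers overlapped between salt and control in both lines, and no marker on any list was at 0. The log2 ratio of 3' to 5' cyclophilin probe sets, a measure of RNA integrity, was 0.41 to 0.87 in FL478 control arrays, 0.69 to 1.22 in FL478 salt arrays, 0.70 and 0.90 in IR29 control arrays and 0.99 to 1.15 in IR29 salt arrays. The xylem and root sums thus separated salt from control arrays in both lines, and the dividing-cell sums and cyclophilin ratios did so in IR29 only. The part of these values in the salt comparisons below was not tested. In tissue pooled from many cell types, fewer cells of a type and less RNA per cell cannot be told apart.

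Salt against control in FL478 gave no member past the threshold. At an adjusted p under 0.05 (limma, Benjamini-Hochberg over 57258 probe sets), 0 of 103 members were called, beside 0.00873% of all probe sets. At an unadjusted p under 0.05, 4 members were higher in salt, beside a background of 2.81%, and 3 were lower, beside 2.61%. The median difference of the members was -0.01, with 47 of 103 above 0, and over all probe sets 50.6% lay above 0. For 77 of the 103 members the 95% interval of the difference lay within 1 log2 unit of 0 on both sides. The count of 7 members at the unadjusted threshold moved with single arrays: it was 2 without FL478 control replicate 1, 15 without FL478 control replicate 2, and 4 without either FL478 salt replicate 3 or IR29 salt replicate 1.

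Salt against control in IR29 gave no call either. None of the 103 members was called at an adjusted p under 0.05, beside 0.00524% of all probe sets. At the unadjusted threshold 7 members were higher in salt, beside a background of 3.6%, and 0 were lower, beside 3.77%. The median difference was 0.03 with 58 of 103 above 0, against 48.7% of all probe sets, and 70 members had an interval within 1 log2 unit of 0. This count fell to 4 without IR29 control replicate 1 and to 3 without IR29 salt replicate 1.

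**Figure D1:**
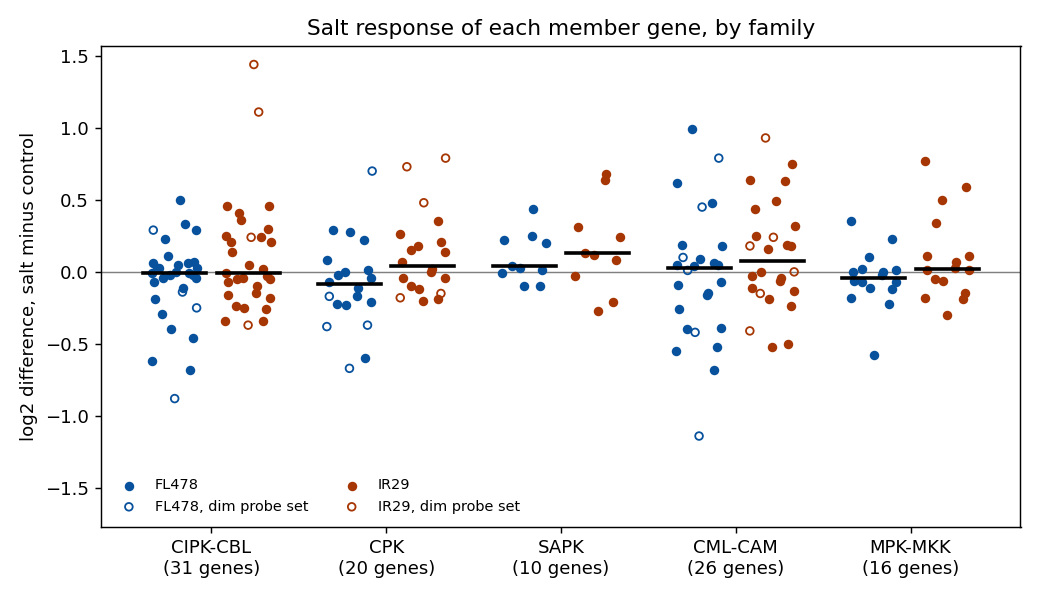
Each point is the log2 difference between salt-stressed and control plants (vertical axis) of 1 member gene in FL478 (blue) or IR29 (red), grouped by family; open points are dim probe sets and black bars are family medians. The medians lie between -0.09 and 0.13 in every family and line, and the points farthest from 0 include dim probe sets such as CBL5 at 1.44 in IR29 and CML5 at -1.14 in FL478.

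Among the CBL sensors, CBL6 had the smallest p of all members in FL478. Its level was 11.59, 11.60 and 11.74 on the FL478 control arrays and 11.97, 12.09 and 11.86 on the salt arrays, and 11.98 and 11.91 in IR29 control against 11.82, 11.87 and 11.99 in IR29 salt plants. All FL478 salt arrays lay above all FL478 control arrays, and the IR29 groups overlapped. The difference was 0.33 ± 0.10 in FL478 (adjusted p = 0.861) and -0.05 ± 0.11 in IR29 (adjusted p = 0.961), and the unadjusted p in FL478 stayed under 0.05 in all 19 alternative settings.

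CBL3, whose namesake in Arabidopsis sits at the vacuolar membrane, was at 10.80, 11.02 and 10.83 in FL478 control plants and 11.18, 11.05 and 11.12 under salt. These groups did not overlap, and the difference was 0.23 ± 0.10 (adjusted p = 0.91), against 0.02 ± 0.12 in IR29. That p passed 0.05 in 9 of 19 alternative settings. CBL2, a sensor of the same kind, differed by 0.03 ± 0.13 in FL478 and -0.18 ± 0.14 in IR29.

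CBL4 is the sensor of the SOS module. It stood at 7.40, 7.12 and 7.49 in FL478 control plants and at 6.67, 6.75 and 6.73 under salt, and at 7.43 and 7.40 in IR29 control against 7.38, 7.92 and 6.73 in IR29 salt plants. The FL478 salt arrays were all below the control arrays, while the IR29 salt arrays spread on both sides of theirs. The difference was -0.62 ± 0.30 in FL478 (95% interval -1.28 to 0.04, adjusted p = 0.922) and -0.07 ± 0.34 in IR29 (-0.81 to 0.68, adjusted p = 0.988). The difference between the lines' responses, 0.55 ± 0.46, had an adjusted p of 0.942.

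CIPK24, the kinase of the SOS module, was at 10.41, 10.56 and 10.05 in FL478 control plants and 10.55, 10.25 and 10.41 under salt. In IR29 it was at 9.85 and 10.07 in control plants and at 9.96, 10.31 and 10.02 under salt. The salt and control groups overlapped in both lines, with differences of 0.06 ± 0.16 in FL478 (95% interval -0.28 to 0.40) and 0.14 ± 0.18 in IR29 (-0.25 to 0.52). CIPK23, the AKT1 activator, likewise differed by 0.03 ± 0.11 (-0.20 to 0.26) in FL478 and -0.03 ± 0.12 (-0.29 to 0.23) in IR29. Responses beyond 1 log2 unit lie outside all 4 of these intervals.

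Other CIPK kinases with an unadjusted p under 0.05 had it in IR29. CIPK19 was at 9.46 and 9.69 in IR29 control plants and at 10.13, 9.81 and 10.16 under salt, a difference of 0.46 ± 0.17 (adjusted p = 0.548). Its FL478 groups overlapped, at 9.52, 9.96 and 9.78 in control plants and 9.98, 9.80 and 9.79 under salt. CIPK5 reached 1.11 ± 0.39 in IR29 (adjusted p = 0.529) but was dim, with levels of 4.20 and 4.32 in control and 5.77, 5.34 and 4.99 in salt-stressed plants. Among the CIPK and CBL genes that were not dim, the FL478 response ran from -0.68 ± 0.34 for CIPK21 to 0.50 ± 0.74 for CIPK10, and the IR29 response from -0.34 ± 0.27 for CIPK14 to 0.46 ± 0.27 for CIPK29. Both FL478 ends moved with 1 array. CIPK21 had a smaller change, -0.22 ± 0.26, without FL478 control replicate 1. CIPK10 had a larger one, 1.48 ± 0.55, without FL478 control replicate 2.

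The dim CBL5 had the largest contrast between the lines. Its levels were 6.39, 5.83 and 5.83 in FL478 control plants, 5.35, 5.68 and 4.38 in FL478 salt plants, 4.67 and 4.30 in IR29 control plants, and 5.79, 5.84 and 6.16 in IR29 salt plants. FL478 salt arrays were all below, and IR29 salt arrays all above, their controls. The responses were -0.88 ± 0.39 in FL478 (adjusted p = 0.91) and 1.44 ± 0.43 in IR29 (adjusted p = 0.408), and they differed by 2.32 ± 0.58 (adjusted p = 0.746). The mean intensity of this gene was 32.2, and the difference between responses ranged from 1.05 to 4.2 over 17 alternative settings. Without FL478 salt replicate 3 the FL478 response was -0.50.

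Of the CPK kinases, CPK12, which raises salt tolerance when overexpressed in rice, was at 9.09, 9.15 and 8.68 in FL478 control plants and 8.40, 8.77 and 7.94 under salt. The groups overlapped at 8.68 and 8.77, and the difference was -0.60 ± 0.25 (adjusted p = 0.91), or -0.39 without FL478 salt replicate 3. In IR29 the levels of 9.35 and 9.15 in control plants and 9.35, 8.64 and 9.41 under salt gave -0.12 ± 0.28. CPK13, also known as CDPK7 and reported to raise cold and salt tolerance, differed by -0.21 ± 0.16 in FL478 and 0.26 ± 0.18 in IR29. A second probe set of CPK13 gave -0.59 ± 0.22 in FL478 (unadjusted p = 0.0211) and -0.02 ± 0.25 in IR29.

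CPK4, another kinase whose overexpression raises salt tolerance, differed by -0.02 ± 0.25 in FL478 and 0.35 ± 0.28 in IR29, the highest IR29 response of a CPK that was not dim. CPK21, a further such kinase, was dim and differed by -0.38 ± 0.46 and 0.48 ± 0.52. CPK19 was among the steadiest members, with all 11 arrays between 12.33 and 12.64 and differences of 0.08 ± 0.10 and 0.00 ± 0.11. Of the 20 CPK genes, 6 had a difference above 0 in FL478 and 11 in IR29, with medians of -0.09 and 0.04.

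No SAPK kinase had an unadjusted p under 0.05 in either salt response. Of the 10 genes, 7 were above 0 in each line, with medians of 0.04 in FL478 and 0.13 in IR29. SAPK8, which abscisic acid activates, was at 12.14, 12.25 and 11.91 in FL478 control plants and 12.19, 11.97 and 11.84 under salt, and at 12.22 and 12.02 in IR29 control plants and 11.91, 11.82 and 11.81 under salt. The IR29 salt arrays lay below their controls, with a difference of -0.27 ± 0.14 (adjusted p = 0.711), and the FL478 groups overlapped at -0.10 ± 0.12. SAPK10, an ABA-activated kinase that phosphorylates TRAB1, was at 8.94, 9.86 and 8.66 in FL478 control plants, 9.08, 9.31 and 9.17 in FL478 salt plants, 7.92 and 8.53 in IR29 control plants and 8.99, 9.16 and 8.44 in IR29 salt plants. Its salt and control groups overlapped in both lines, with differences of 0.03 ± 0.29 and 0.64 ± 0.33 (adjusted p = 0.716 in IR29). SAPK4, whose overexpression raises salt tolerance, differed by -0.01 ± 0.11 (95% interval -0.25 to 0.24) in FL478 and 0.13 ± 0.12 (-0.14 to 0.40) in IR29.

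**Figure D2:**
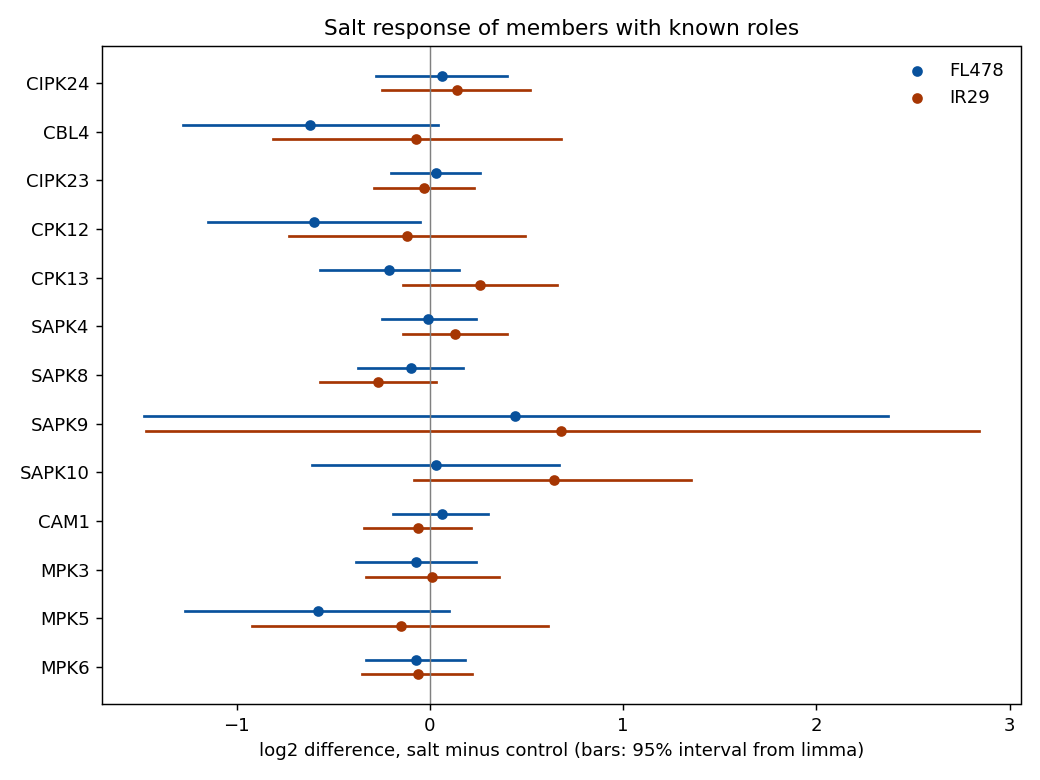
Points are log2 differences between salt-stressed and control plants (horizontal axis) for members with known roles, in FL478 (blue) and IR29 (red), with bars for the 95% interval from limma. Intervals are narrow for CIPK23, SAPK4 and MPK6 and widest for SAPK9, whose arrays differed most within groups. Of the FL478 intervals that of CPK12 excludes 0 without adjustment, and its adjusted p was 0.91.

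The calmodulins are nearly identical proteins encoded by several genes. CAM2 was at 13.82, 13.94 and 13.46 in FL478 control plants and 13.36, 13.36 and 13.33 under salt, where every salt array was below every control array, with a difference of -0.39 ± 0.13 (adjusted p = 0.905). Its IR29 values of 13.31 and 13.70 in control plants and 13.48, 13.49 and 13.46 under salt overlapped, at -0.03 ± 0.15. CAM1 differed by 0.06 ± 0.11 and -0.06 ± 0.12, and CAM3 by -0.15 ± 0.15 and 0.00 ± 0.16. Of these 3 genes 1 was above 0 in each line. Without FL478 control replicate 2 the CAM2 difference was -0.29 and its unadjusted p 0.0566.

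Among members that were not dim, the calmodulin-like CML8 had the largest FL478 salt difference. It was at 7.29, 8.04 and 6.65 in FL478 control plants and 8.07, 8.86 and 8.01 under salt, groups that overlapped at a single point, for a difference of 0.99 ± 0.40 (adjusted p = 0.905), or 0.65 without FL478 control replicate 3. In IR29 it was at 7.19 and 7.47 in control plants and at 7.63, 8.46 and 7.23 under salt, or 0.44 ± 0.44. CML16 was at 8.21 and 7.83 in IR29 control plants and 8.66, 8.59 and 9.07 under salt, a difference of 0.75 ± 0.25 (adjusted p = 0.486) with no overlap. In FL478 the CML16 arrays read 8.59, 8.51 and 9.12 in control plants and 8.90, 9.48 and 9.29 under salt, an overlap with a difference of 0.48 ± 0.22 (adjusted p = 0.922).

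CML1, also listed as CAM61, had similar values in both lines: 0.62 ± 0.28 in FL478 (adjusted p = 0.922) and 0.64 ± 0.32 in IR29 (adjusted p = 0.708). Its arrays read 6.94, 7.56 and 6.70 in FL478 control plants, 7.80, 7.36 and 7.91 in FL478 salt plants, 7.31 and 7.97 in IR29 control plants, and 8.25, 8.48 and 8.12 in IR29 salt plants. Salt arrays lay above controls without overlap in IR29 and with overlap in FL478. CML9 differed by 0.63 ± 0.26 in IR29 (adjusted p = 0.625) and 0.05 ± 0.23 in FL478. At the other end, CML11 was at -0.68 ± 0.39 in FL478 and CML17 at -0.52 ± 0.33 in IR29. Over the 26 CML and CAM genes, 14 were above 0 in FL478 and 15 in IR29, with medians of 0.03 and 0.08.

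Among the MAP kinases the salt differences with an unadjusted p under 0.05 belonged to MPK7 and MPK4 in IR29. MPK7 was at 9.27 and 9.35 in IR29 control plants and 10.37, 9.80 and 10.09 under salt, a difference of 0.77 ± 0.28 (adjusted p = 0.546) with no overlap. On the FL478 arrays it read 10.34, 9.21 and 9.39 in control plants and 9.50, 9.57 and 9.34 under salt, where 1 control array stood above the rest, and the difference was -0.18 ± 0.25. The responses of MPK7 differed by 0.95 ± 0.38 between the lines (adjusted p = 0.916), and by 0.60 ± 0.25 without FL478 control replicate 1, the array that stood above the rest.

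MPK4 was at 10.81 and 10.71 in IR29 control plants and 11.11, 11.09 and 11.12 under salt, or 0.34 ± 0.14 (adjusted p = 0.618), against -0.06 ± 0.13 in FL478. MPK5, the stress-inducible MAP kinase that the literature also calls MAPK5 or MPK3, was at 9.0, 7.96 and 8.26 in FL478 control plants and 8.26, 7.75 and 7.46 under salt. Its groups overlapped, with differences of -0.58 ± 0.31 (adjusted p = 0.935) in FL478 and -0.15 ± 0.35 in IR29. The gene listed as MPK3 (LOC4328297) differed by -0.07 ± 0.14 and 0.01 ± 0.16, and MPK6 (LOC4349225) by -0.07 ± 0.12 and -0.06 ± 0.13. MKK1, the 1 upstream kinase measured, differed by 0.00 ± 0.14 and -0.05 ± 0.15. Names of rice MAP kinases differ between publications, so the gene identifiers decide which gene is meant.

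The difference between the 2 salt responses (IR29 minus FL478) was tested directly. By limma 0 of 103 members passed an adjusted p of 0.05, where 0% of all probe sets did. At an unadjusted p under 0.05, 2 members (CBL5 and MPK7) were higher in IR29, beside a background of 2.69%, and 1 (CBL6, -0.38 ± 0.15, adjusted p = 0.916) was lower, beside 2.65%. The median over members was 0.07 with 61 of 103 above 0, against 48.4% of all probe sets. Only 55 members had an interval within 1 log2 unit of 0, so that for the other 48 a difference of that size was not excluded. The count of 3 became 8 without FL478 control replicate 3, 6 without FL478 salt replicate 1, 5 when IR29 control replicate 2 was left out, 5 when IR29 salt replicate 2 was, and 1 when IR29 salt replicate 1 was.

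**Figure D3:**
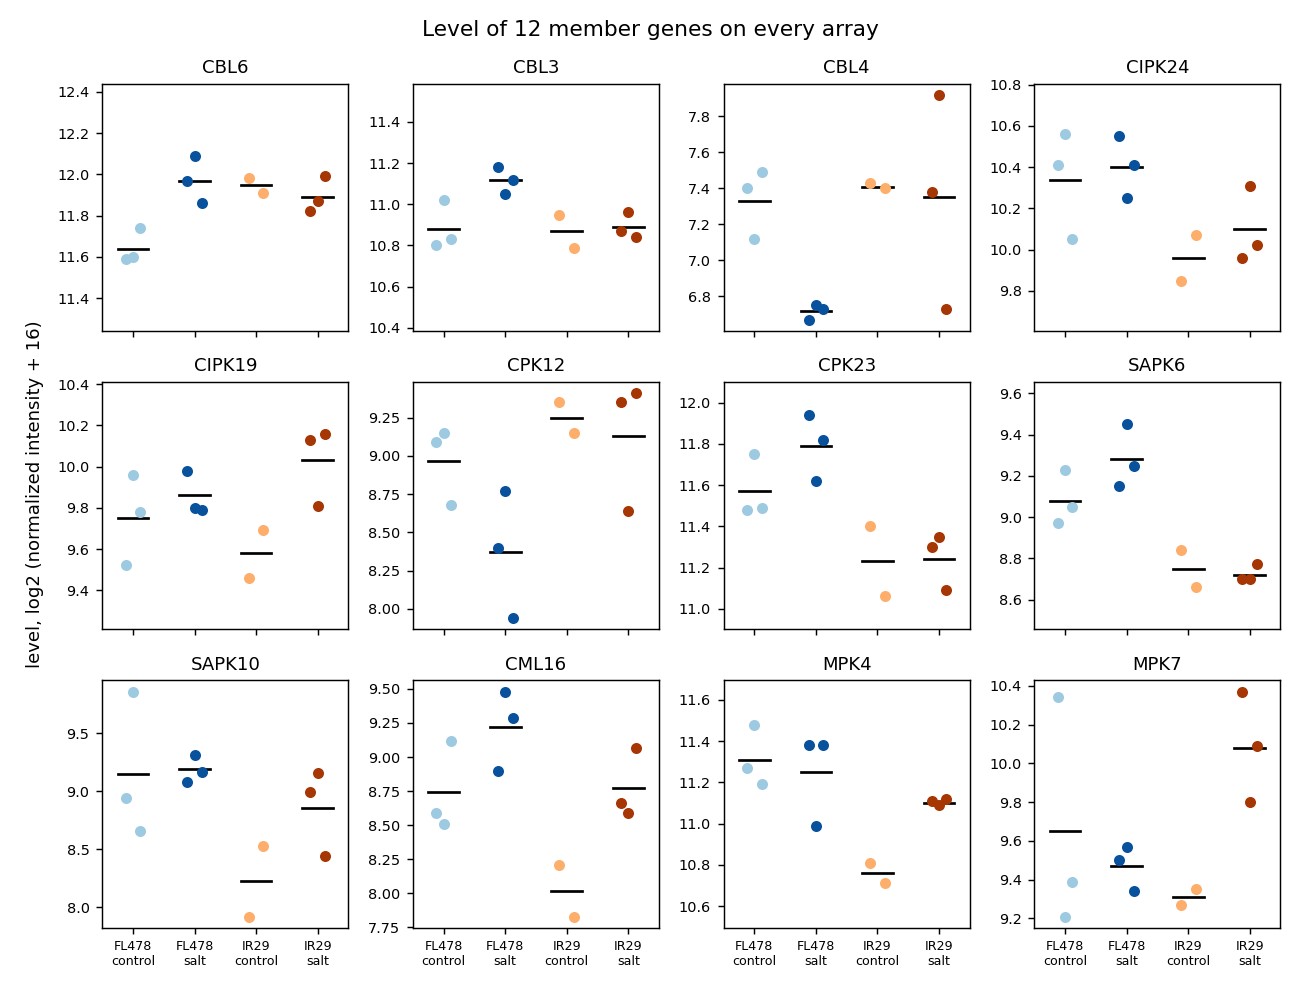
Each panel shows 1 member gene: points are arrays, bars are group means, and the vertical axis is the log2 level, with its own range in each panel. CBL6 is higher on all FL478 salt arrays than on the FL478 control arrays, CBL4 is lower there, and CPK23 and SAPK6 are lower on all IR29 arrays than on all FL478 arrays.

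More probe sets were called between the lines than between salt and control, but no member passed the threshold in either line comparison. In control plants 0 of 103 members were called by limma at an adjusted p under 0.05, beside 0.814% of all probe sets. At the unadjusted threshold 1 member was higher in IR29, beside a background of 4.48%, and 8 were lower, beside 4.5%. The median difference was -0.13, with 38 of 103 members above 0, against 50.5% of all probe sets, and 66 members had an interval within 1 log2 unit of 0. Families with a median below -0.1 were CIPK and CBL (-0.17, 9 of 31 above 0), CML and CAM (-0.25, 9 of 26) and SAPK (-0.16, 4 of 10). Tissue markers differed between the lines as well. The summed intensity of the 5 shoot meristem markers was 6575 to 10273 in FL478 and 5572 to 6461 in IR29 control plants, and 6186 to 7333 against 4563 to 6177 under salt, so the IR29 arrays lay below the FL478 arrays in both conditions. Of these 5 markers 1 was above 0 in the control comparison (median -0.32) and 0 under salt (median -0.38). The xylem sums given above overlapped between the lines in both conditions, with 1 of the 3 genes above 0 in control plants and 3 of 3 under salt (medians -0.26 and 0.52). The part of these markers in the line differences was not tested. The count of 9 became 14 without FL478 control replicate 3, and in that setting 1 member, CPK4, was called, at a control difference that was -0.66 ± 0.28 with all arrays (adjusted p = 0.509).

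MPK4 had the smallest p of all members in the control comparison. Its FL478 control arrays read 11.27, 11.48 and 11.19 and its IR29 control arrays 10.81 and 10.71, with no overlap and a difference of -0.55 ± 0.14 (adjusted p = 0.134). Under salt FL478 read 11.38, 10.99 and 11.38, which overlapped the IR29 arrays at 11.11, 11.09 and 11.12, for a difference of -0.14 ± 0.13. The comparisons share arrays with the salt responses: the same IR29 control arrays enter the MPK4 salt difference given above.

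CML14 was lower in IR29 in both conditions. It was at 7.51, 7.27 and 6.71 in FL478 control plants against 5.33 and 5.86 in IR29, or -1.57 ± 0.41 (adjusted p = 0.145), and at 7.50, 6.66 and 6.56 in FL478 salt plants against 6.24, 5.84 and 6.18, or -0.82 ± 0.37 (adjusted p = 0.424). Neither pair of groups overlapped, and without FL478 salt replicate 1 the salt-stressed difference was -0.52. CML16 and CML4 were also lower in IR29 control plants, at -0.72 ± 0.25 (adjusted p = 0.349) and -0.74 ± 0.28 (adjusted p = 0.406). A second probe set of CML4 gave -0.46 ± 0.23. SAPK10 was at -0.93 ± 0.33 (adjusted p = 0.37) and CPK23 at -0.34 ± 0.15 (adjusted p = 0.528). Without FL478 control replicate 2 SAPK10 was at -0.57 ± 0.27 (unadjusted p = 0.0555) and CML4 at -0.42 ± 0.20 (unadjusted p = 0.0631). CBL6 was higher in IR29 control plants by 0.31 ± 0.11 (adjusted p = 0.4). The dim CBL5 was at -1.53 ± 0.43 (adjusted p = 0.194).

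In salt-stressed plants the lines were compared with 3 arrays each. Here too 0 of 103 members were called, beside 1.73% of all probe sets. At the unadjusted threshold 4 members were higher in IR29, beside a background of 5.86%, and 7 were lower, beside 5.59%, with a median of -0.03 and 47 of 103 above 0, against 47.9% of all probe sets. The count of 11 fell to 6 without FL478 salt replicate 3 or without IR29 salt replicate 1. CPK23 came closest to the threshold, at 11.94, 11.62 and 11.82 in FL478 against 11.30, 11.35 and 11.09 in IR29, or -0.55 ± 0.13 (adjusted p = 0.0731).

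SAPK6, an SnRK2 kinase, followed at 9.15, 9.45 and 9.25 in FL478 against 8.70, 8.70 and 8.77 in IR29, or -0.56 ± 0.14 (adjusted p = 0.084). Both genes were also lower in IR29 control plants without overlap, SAPK6 at 8.84 and 8.66 against 8.97, 9.23 and 9.05 in FL478. With dim probe sets left out of the test, or with array weights, both passed the threshold, at adjusted p of 0.0463 and 0.0256 for CPK23 and 0.0484 and 0.0437 for SAPK6. Their unadjusted p stayed under 0.05 in all 19 alternative settings.

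Other members with an unadjusted p under 0.05 under salt were CPK12, higher in IR29 by 0.76 ± 0.25 (adjusted p = 0.218), MPK7, higher by 0.62 ± 0.25 (adjusted p = 0.36), and the dim CPK22 and CPK21, at 1.45 ± 0.52 and 1.02 ± 0.46. CPK21 was at 0.59 without IR29 salt replicate 1. Lower in IR29 were CML13 (-0.29 ± 0.10, adjusted p = 0.24), SAPK3 (-0.34 ± 0.14, adjusted p = 0.355), CIPK18 (-0.52 ± 0.24, adjusted p = 0.436), CML14 and CIPK23. The 2 probe sets of CIPK23 disagreed on the line difference. The one used gave -0.25 ± 0.11 under salt (adjusted p = 0.382) and -0.20 ± 0.12 in control plants, and the other gave 0.45 ± 0.22 and 0.57 ± 0.25.

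**Figure D4:**
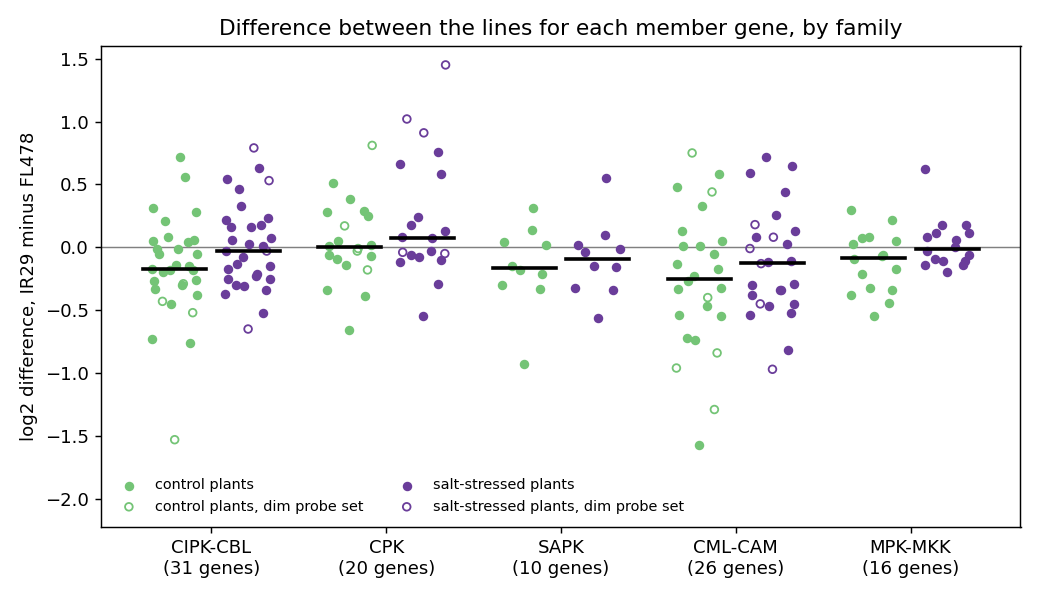
Each point is the log2 difference between IR29 and FL478 (vertical axis) of 1 member gene in control plants (green) or salt-stressed plants (purple), grouped by family; open points are dim probe sets and bars are medians. In control plants the medians of the CIPK-CBL, CML-CAM and SAPK genes lie at -0.17, -0.25 and -0.16, and under salt the family medians lie between -0.13 and 0.08.

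The widest variation among the members lay between arrays of the same group. SAPK9, an ABA-activated SnRK2 kinase, had a pooled SD within groups of 1.4 on the log2 scale, exceeded by 0.435% of the 27579 probe sets that were not dim, and CIPK10 had 1.18, exceeded by 0.794%. The median SD was 0.23 over the 88 members that were not dim and 0.26 over all probe sets that were not. SAPK9 read 8.62, 10.02 and 8.52 in FL478 control plants, 8.72, 11.09 and 8.68 in FL478 salt plants, 7.87 and 10.85 in IR29 control plants, and 10.19, 11.40 and 8.53 in IR29 salt plants. CIPK10 read 8.44, 11.58 and 8.80, then 10.06, 11.04 and 9.21, then 9.55 and 11.10, then 11.18, 10.67 and 9.86 in the same order.

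Replicate 2 was thus the highest array of every group for SAPK9 and of 3 of the 4 groups for CIPK10, where IR29 salt replicate 1 was higher. Both genes were picked out after their values were seen. Replicate 2 was highest in all 4 groups for 6 of the 88 members that were not dim (SAPK9, SAPK10, SAPK3, CML8, CIPK7 and CAM2), or 6.82%, and for 3.65% of all probe sets that were not dim. The other 3 probe sets of CIPK10 had standard errors of 0.66 to 0.72 for the FL478 response, close to the 0.74 of the one used. PSAG, a photosystem I subunit among the leaf markers, read 10.02, 8.51 and 10.55 in FL478 control plants, 9.68, 7.78 and 10.25 in FL478 salt plants, 10.11 and 7.95 in IR29 control plants, and 9.03, 7.89 and 9.94 in IR29 salt plants, so it was lowest on replicate 2 of every group. The other leaf markers were mixed. CAB2R was also lowest on replicate 2 of every group, down to 14.47 in IR29 salt plants. PSAH and RBCS were instead highest on FL478 salt replicate 2, at 12.43 and 12.52. RBCS1, with a mean intensity of 21.6, was highest on replicate 2 of both control groups, at 5.52 in FL478 and 5.8 in IR29. The part of these leaf markers in the spread of SAPK9 and CIPK10 was not tested.

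This spread sets what the arrays could show for these genes. The salt differences of SAPK9 were 0.44 ± 0.88 in FL478 (95% interval -1.48 to 2.37) and 0.68 ± 0.99 in IR29 (-1.47 to 2.84), and that of CIPK10 was 0.50 ± 0.74 in FL478 (-1.12 to 2.11). Changes of more than 2-fold in either direction lie inside each of these intervals. Single arrays moved these values: CIPK10 was at 1.48 ± 0.55 (unadjusted p = 0.0208, adjusted p = 0.649) without FL478 control replicate 2, and SAPK9 in IR29 ran from -0.81 without IR29 control replicate 1 to 2.17 without IR29 control replicate 2. With replicate number as a block, the standard errors for SAPK9 were 0.36 in FL478 and 0.41 in IR29, and the IR29 difference was 1.16 (unadjusted p = 0.0178, adjusted p = 0.492). Over all members the first principal component, with 31.3% of the variance, did not separate the groups. Replicate 2 had the highest score of each group on it, at 1.62 in FL478 control, 1.89 in FL478 salt, 2.45 in IR29 control and 3.25 in IR29 salt. The members include SAPK9 and CIPK10, whose part in this order was not tested. The second component, with 16.6%, placed the FL478 arrays between -2.21 and 0.48 and the IR29 arrays between 0.72 and 2.80. A separation by line was not particular to the members. Over all probe sets the first component placed the FL478 arrays between -62.57 and -22.26 and the IR29 arrays between 31.48 and 74.95.

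**Figure D5:**
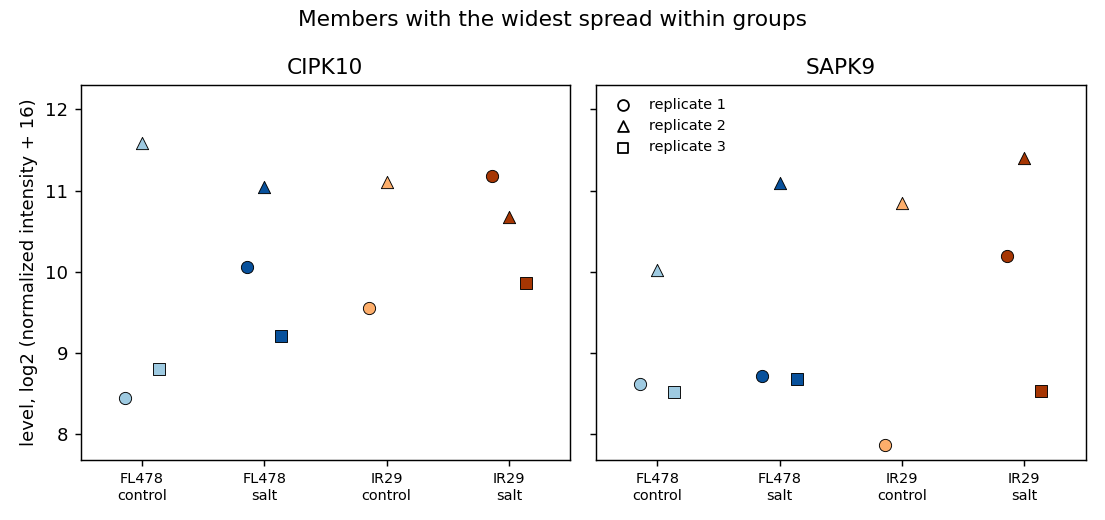
Points are arrays and the vertical axis is the log2 level of CIPK10 (left) and SAPK9 (right) in the 4 groups, with the marker shape giving the replicate number. Replicate 2 (triangles) is the highest array of every group for SAPK9, and of every group but IR29 salt for CIPK10.

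Genes that feed into or act below these kinases were looked up by name. Of 11 calcium channels, pumps and exchangers, 0 were called in either salt response. In FL478, where 0.00873% of all probe sets were called, an unadjusted p under 0.05 was found for 2 that were higher (background 2.81%) and 1 that was lower (background 2.61%). Those higher were the vacuolar channel TPC1, by 0.41 ± 0.12 (adjusted p = 0.823) and the calcium pump ACA5, by 0.29 ± 0.11 (adjusted p = 0.905). TPC1 read 10.26, 10.03 and 10.09 in FL478 control plants and 10.39, 10.71 and 10.52 under salt, without overlap, and its IR29 difference was 0.28 ± 0.14. The lower one, the pump ACA1 at -0.42 ± 0.18, had a mean intensity of 5.8. In IR29, where 0.00524% of all probe sets were called, 0 of the 11 had an unadjusted p under 0.05, beside 3.6% of all probe sets higher and 3.77% lower.

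SOS1, the target of the SOS module, and the NHX genes were also sought by name. No probe set assigned to any of them alone was found under those names. Of the 4 targets of the CIPK and SAPK kinases that were found, 0 were called in either salt response. At an unadjusted p under 0.05, 2 were higher and 1 was lower in FL478, and 3 were higher and 1 was lower in IR29, beside the background shares just given. BZIP23, an ABA-response factor that SAPK kinases phosphorylate, read 9.78, 9.62 and 10.17 in FL478 control plants and 10.38, 10.50 and 10.76 under salt, and 9.63 and 9.49 in IR29 control plants and 11.04, 10.80 and 10.90 under salt. The salt arrays lay above the controls in both lines, by 0.69 ± 0.16 in FL478 (adjusted p = 0.558) and 1.35 ± 0.17 in IR29 (adjusted p = 0.0739). TRAB1, another bZIP factor of this kind, was at 0.33 ± 0.15 and 0.60 ± 0.16 (adjusted p = 0.91 and 0.343). The potassium channel AKT1 was at -0.58 ± 0.26 and -0.67 ± 0.29 (adjusted p = 0.91 and 0.648), and the NADPH oxidase RBOHB at 0.20 ± 0.12 and 0.33 ± 0.13.

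Of the 3 ABA receptor and phosphatase genes measured, the phosphatase gene ABIL1 differed by 0.63 ± 0.21 in IR29 (adjusted p = 0.487) and by 0.22 ± 0.19 in FL478, and PYL11 by -0.02 ± 0.22 and -0.16 ± 0.19. The third, ABIL2, differed by -0.04 ± 0.24 in IR29 and 0.01 ± 0.21 in FL478. The 3 SnRK1 kinases OSK1, OSK3 and OSK24, relatives of the SAPK kinases that respond to energy supply, were between -0.01 and 0.07 in FL478 and between 0.09 and 0.23 in IR29, with no unadjusted p under 0.05.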

How the data were processed

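Rice crown and growing point RNA was measured on 11 Affymetrix arrays. The authors deposited linear signal intensities, 1 for each probe set on each array; per the submitters' processing notes the software was GCOS 1.2, and no further step is named there. After removal of 123 control probe sets, 57258 of 57381 were tested. Intensities plus 16 were log2-transformed, quantile normalized, and fitted with limma 3.58.1 in R 4.3.3 (4 group means, intensity trend, two-sided moderated tests, Benjamini-Hochberg adjustment over all probe sets), after a test on simulated data. Genes came from the array's annotation, joined to synonyms in the RefSeq gene table (ASM3414082v1). That annotation gave 1 gene for 22436 probe sets, several for 95 and none for 34727. Members, gene lists and tests were chosen with earlier results of these data known. Genes named in the text were drawn, per comparison, from called members and up to 6 per direction with the smallest unadjusted p under 0.05. The brightest and most extreme members of each family and genes of known role were added. Extreme members not described above were CPK8 (0.29) and MPK11 (0.35) in the FL478 salt response, and CPK24 (-0.20) and MPK1 (-0.30) in IR29. Other genes are named as examples. Over all probe sets, deviations of same-numbered replicates correlated little (-0.051 to 0.132 over 15 pairs, 2 above 0.1), so no block was used. Pairs with unlike numbers ran from -0.153 to 0.153. The 2 IR29 control arrays deviate from their mean in opposite directions, so their correlations with any other array are equal and opposite. A correlation over all probe sets cannot show whether single genes, such as SAPK9, shared a deviation by replicate number. Alternatives covered normalization, pseudocount, dim probe sets, replicate block, array weights, groups fitted, probe set choice and leaving out each array. Precision is limited by 2 or 3 arrays per group.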

Additional observations from a re-analysis of the deposited data

How the results depend on the processing

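No member was called in the 5 comparisons under any alternative except as follows. In the salt-stressed line comparison 2 members, CPK23 and SAPK6, were called without dim probe sets and 2 with array weights, and in the control line comparison leaving out arrays gave 0 to 1 (CPK4). For the other comparisons leaving out arrays gave 0 to 0 called. Counts at an unadjusted p under 0.05 moved more: in IR29 salt to 12 with the replicate block or only the groups compared, in the control line comparison to 5 with only the groups compared, and in the salt-stressed line comparison to 21 with array weights and 17 with only the groups compared. Leaving out single arrays gave 2 to 15 in FL478 salt, 3 to 10 in IR29 salt, 1 to 8 for the difference, 8 to 14 for lines in control and 6 to 16 for lines under salt. The replicate block gave 8, 12, 4, 13 and 13 in the same order and 0 called. Over all probe sets 5 of 11 arrays correlated best with their own number, which does not exclude a shared deviation in single genes. The mean of all probe sets turned CIPK23 in the salt-stressed line comparison to 0.1. Of the alternative values for named members at an unadjusted p under 0.05, 612 kept direction and side of the adjusted threshold, 4 passed it and 1 reversed. Of those for other named members, 1762 moved by less than the standard error of the difference in the main fit and 35 by more. Among the latter was CIPK10 in FL478 salt, at 1.48 without FL478 control replicate 2. Fitting only the groups compared could not be done for the difference. Without an IR29 control array the lone array was assumed to vary like the other groups. The causes were not tested. Dim probe sets limit what 15 members could show.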

Other observations

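Several members had a second probe set with a value unlike that of the one used. A second CML27 probe set, with a mean intensity of 84.6, gave 1.04 ± 0.47 for salt against control in FL478 (unadjusted p = 0.0484), where the one used gave -0.55 ± 0.28. A second probe set of the dim CPK6 gave -1.21 ± 0.39 (unadjusted p = 0.00892) in the same comparison, against 0.70 ± 0.39. CIPK2 had 2 other probe sets. For IR29 against FL478, the one used gave 0.21 ± 0.21 in control plants and 0.22 ± 0.19 under salt, the second (mean intensity 599.1) gave 0.63 ± 0.29 and 0.60 ± 0.26, and the third, dimmer one gave 1.11 ± 0.57 and -0.07 ± 0.51. In the IR29 salt response the third gave -0.81 ± 0.57 against 0.05 ± 0.21 for the one used. Of 15 second probe sets that were not dim, 11 had the sign of the first in the FL478 salt response and 10 in the IR29 salt response. These probe sets were singled out after their values were seen.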
